A study of Mus musculus with 12 samples.

Results

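Beige adipocytes made from mouse primary cells were compared with beige adipocytes made from a mouse cell line, across all genes, using the 4 libraries of these 2 groups out of 12 libraries in the series. The primary group, WT-beige, held 2 libraries of wild-type C57BL/6 cells differentiated from preadipocytes of inguinal white adipose tissue. The line group, Control-beige, held 2 libraries of the C3H10T1/2 line with the genotype Control, an established line labelled with no strain. All 4 were treated with rosiglitazone, a drug that activates the nuclear receptor PPAR-gamma. The other libraries came from the same 2 sources: 2 labelled ATF7KO with rosiglitazone, 4 primary cultures without it (2 WT-white and 2 ATF7KO-white), and 2 of C3H10T1/2 with rosiglitazone and overexpressed ATF7, a transcription factor of the ATF2 family. Of 24888 entries in each library, 10546 had at least 1 FPKM (fragments scaled to gene length and to the library's total) in at least 2 of the 4 libraries and were tested.

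Beige adipocytes are cells of white fat depots that can switch on the heat-producing programme of brown fat, with the mitochondrial uncoupling protein UCP1 at its centre. Inguinal preadipocytes are a mixed population of stromal cells taken from the animal, whereas C3H10T1/2 is an established line of mesenchymal cells from mouse embryos of the C3H strain that can become fat, bone or cartilage cells. Rosiglitazone pushes both toward the beige state. Cell origin and any batch in which the cells were grown or the libraries made differ together between the groups and cannot be told apart.

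Each library's FPKM values were scaled on their own, so a level set across libraries also carries what the most abundant RNAs of that library took up. Small RNA entries held 23.85% to 27.08% of the summed FPKM in the 4 libraries, and the median difference of all entries tested, primary minus line, was -0.0814 on the log2(FPKM + 1) scale. Across all entries the log2 values correlated at 0.9919 between the WT-beige replicates, at 0.9878 between the Control-beige replicates and at 0.9318 to 0.933 between the groups. The labels do not say that replicates were separate cultures, so p-values measure the spread between these libraries, which may be technical. Read depth is unknown.

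Most genes differed between the 2 kinds of beige adipocyte. Of the 10546 entries tested, 6637 were called (62.9%; limma, Benjamini-Hochberg adjusted p under 0.05), with 2819 higher in primary cells (26.7%) and 3818 lower (36.2%). Large differences leaned the other way: 1000 called entries were higher by more than 1 on the log2 scale and 738 were lower by more than 1, and beyond 3 the numbers were 124 and 45. The same origins with rosiglitazone could be compared again in 4 libraries that the first comparison did not use, ATF7KO-beige against ATF7-Overexpressing-beige, although these also differ in ATF7 status. There 5655 of 10478 entries were called (54.0%), and of the 6481 first calls tested again, 4800 were called in the same direction (74.1%) and 26 in the opposite one. Among the 1671 called entries with a difference over 1 that were tested again, 1648 were called in the same direction (98.6%). Atf7 itself had 7.8 and 7.83 FPKM in WT-beige and 8.52 and 9.09 in Control-beige and was not called, with 7.26 and 7.94 in the libraries labelled ATF7KO and 41.2 and 39.1 in the overexpressing line. Which part of the gene was deleted is not given in the sources used here, so the gene-level value does not check that label.

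Both cultures carried the adipocyte programme at high level, and some of its members were higher and others lower in primary cells. Fabp4, an abundant fatty acid carrier of adipocytes, had 9180 and 8600 FPKM in primary cells and 9330 and 9410 in the line. Plin1, the main coat protein of the lipid droplet, had 295 and 291 against 272 and 293. Neither was called (adjusted p = 0.46 and 0.483). The groups overlapped for Plin1 and did not overlap for Fabp4. Pparg, the target of rosiglitazone, was slightly lower in primary cells, with 47 and 45.1 FPKM against 56.5 and 52.5 (difference -0.24 ± 0.063 SE, adjusted p = 0.019), and this call was lost when any of 3 libraries was left out (adjusted p up to 0.105) and with quantile normalization (0.0505). Cebpb was not called, while Cebpa, which drives terminal adipocyte differentiation, was higher in primary cells at 104 and 105 against 30.8 and 30.5 FPKM (1.73 ± 0.052). Ebf2, a factor that marks beige and brown precursors, had 7.54 and 8.13 FPKM in primary cells and 0.323 and 0.203 in the line (2.81 ± 0.093).

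Of 33 adipocyte core genes matched, 31 were tested. In primary cells 10 were higher, 14 were lower and 7 were not called, with a median difference of -0.0758. Among all entries 26.7% were higher and 36.2% lower (median -0.0814), not far off, so the counts say nothing particular about the list. Adiponectin (Adipoq), the most abundant adipocyte hormone, was lower at 518 and 506 FPKM against 1040 and 1080 in the line (-1.05 ± 0.059). Cfd, the complement protease adipsin, was lower at 54.8 and 53.2 against 230 and 203. Dgat2, which makes triglyceride in the last step of its synthesis, was lower at 45.3 and 43.9 against 162 and 166, and Pck1, needed to make the glycerol backbone, at 33.2 and 32.2 against 111 and 99.6. The retinol-binding adipokine Rbp4 (chr19:38116620-38125321, mm10, the whole gene) went the opposite way, at 531 and 478 FPKM in primary cells and 1.81 and 0.839 in the line (7.80 ± 0.19, adjusted p = 4.33e-06), the largest difference in favour of primary cells among the genes named here with every library above 0. Fabp5, a second fatty acid carrier, was higher too at 502 and 517 against 118 and 134. Leptin (Lep) did not exceed 0.0757 FPKM in any of the 4 libraries, against 7.52 and 8.26 in WT-white.

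**Figure D1:**
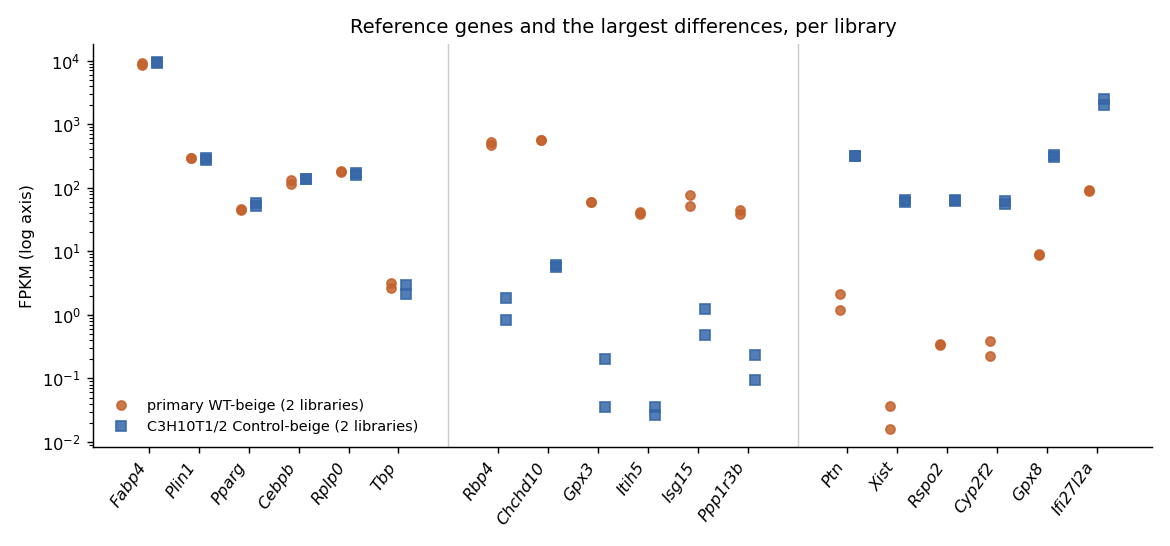
FPKM on a log axis in each of the 2 primary WT-beige libraries (circles) and the 2 C3H10T1/2 Control-beige libraries (squares) for 6 reference genes on the left, 6 genes much higher in primary cells in the middle and 6 much higher in the line on the right. Fabp4, Plin1 and Pparg lie close together, whereas Rbp4 stands at 531 and 478 against 1.81 and 0.839 FPKM and Ptn at 1.21 and 2.09 against 321 and 316.

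Of 31 thermogenic genes matched, 22 were tested, 8 were higher in primary cells, 8 were lower and 6 were not called, with a median difference of -0.0967. These shares lie near those of all entries (26.7% higher and 36.2% lower), so the counts say nothing particular about the list. Ucp1 had 19.09 and 17.23 FPKM in primary cells and 8.71 and 6.82 in the line, with no overlap (1.14 ± 0.12, adjusted p = 0.000455). Ppargc1a, the coactivator that drives mitochondrial biogenesis, was higher at 6.07 and 6.37 against 0.167 and 0.204 (2.61 ± 0.083). Chchd10, a mitochondrial protein of the intermembrane space, was higher at 568 and 573 against 5.99 and 5.57 (6.40 ± 0.058). Plin5, which ties lipid droplets to mitochondria, had 20.5 and 21.9 against 3.79 and 4, and the beige regulator Prdm16 had 1.05 and 1.28 against 0.46 and 0.483 (0.55 ± 0.094).

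Other thermogenic genes were lower in primary cells. Cidea, a lipid droplet protein used as a beige marker, had 56.1 and 52.3 FPKM in primary cells and 96.4 and 84.7 in the line (-0.73 ± 0.081, adjusted p = 0.000587). Cox8b, the brown-fat and muscle form of a cytochrome oxidase subunit, had 156 and 183 against 821 and 792 (-2.25 ± 0.086). Fabp3, another fatty acid carrier of oxidative tissues, had 16.5 and 18 against 99.9 and 113, and the peroxisomal enzyme gene Ehhadh 12.6 and 13 against 44.2 and 42.1. Dio2, which activates thyroid hormone in brown fat, did not pass the filter, with at most 0.0726 FPKM. In the second pair of groups Ucp1 had 51.6 and 24.5 FPKM in ATF7KO-beige against 1.08 and 0.82 in the overexpressing line, and Cidea 115 and 89.5 against 24.8 and 26, so that Cidea was higher in primary cells there (1.96 ± 0.14). Among the same 22 genes, 16 were called higher in primary cells and 2 lower in that pair, with a median difference of 1.34. Of all entries tested in that pair, 26.9% were called higher and 27.1% lower, with a median of -0.0111. A direct test of the change between the 2 comparisons was passed by 102 of 10814 entries (0.943%), Ucp1, Cidea, Cox8b and Fabp3 among them.

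The gene named here with the largest difference in favour of the line was Ptn, the heparin-binding growth factor pleiotrophin (chr6:36715663-36811361, mm10, the whole gene), with 321 and 316 FPKM against 1.21 and 2.09 in primary cells (-6.93 ± 0.15, adjusted p = 3.13e-06). Rspo2, which amplifies Wnt signals, had 63.7 and 62.2 against 0.353 and 0.332. The endoplasmic reticulum peroxidase Gpx8 had 303 and 325 against 8.81 and 9.08, the ferritin receptor Scara5 58.6 and 54.6 against 1.16 and 1.04, and the plasma protein gene Clec3b 131 and 121 against 5.32 and 4.09. Both cytochrome P450 genes in this group, Cyp2f2 (55.1 and 61.7 against 0.381 and 0.228) and Cyp2e1 (32.6 and 43.3 against 0.231 and 0.569), encode drug-metabolising enzymes best known from lung and liver. S100a4, Nov and Ces1f completed the list with Xist and Ifi27l2a, which are described with their own groups.

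On the primary side, Gpx3, the secreted glutathione peroxidase, had 60 and 58.7 FPKM against 0.201 and 0.0357 (5.76 ± 0.093). Itih5, a hyaluronan-binding matrix protein of fat tissue, had 41.1 and 38.6 against 0.0264 and 0.0353, and Ppp1r3b, which targets a phosphatase to glycogen, 44.5 and 38.6 against 0.236 and 0.0938. The metal-binding metallothionein Mt2 had 826 and 755 against 33.4 and 22.9. Gnai1, Creld1 and Tlcd2 also belonged to the 12 largest. These genes were chosen by the size of the difference, so C3H10T1/2 values below every primary value follow from that choice. All 24 genes of the 2 lists were called in the same direction in the second pair of groups.

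Interferon-stimulated genes that passed the filter were mostly higher in primary cells. Interferons bind cell-surface receptors, and a complex of transcription factors then switches on genes whose products block viruses. Of 64 such genes matched, 56 passed the filter, and 53 of these were higher in primary cells and 3 lower, against 26.7% and 36.2% of all entries. Many passed only through their level in primary cells: 10 of the 64 were listed at 0 in both line libraries, and 0 in both primary libraries. Of the 22 with at least 1 FPKM in all 4 libraries, 19 were higher and 3 lower (median difference 1.64), against 23.3% higher and 35.8% lower among all entries at that level (median -0.086). The ubiquitin-like protein gene Isg15 had 51.8 and 76 FPKM in primary cells and 0.483 and 1.23 in the line (5.13 ± 0.24, adjusted p = 2.46e-05). Ifit1, whose product binds foreign RNA ends, had 32.8 and 44.7 against 0.429 and 0.355, and Rsad2, the antiviral enzyme viperin, 18.8 and 24.7 against 0 and 0.0182. Trim25, an activator of RNA sensing, was listed at 0 in both line libraries against 16.5 and 18.4.

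Isg15, Ifit1 and Rsad2 were named for a large difference or a low p, so the lack of overlap between their groups follows from that choice. In WT-white, primary cells without rosiglitazone, the 3 genes had 7.92 and 11.7 FPKM (Isg15), 4.41 and 5.97 (Ifit1) and 0.312 and 0.785 (Rsad2), between the line and WT-beige for all 3 genes. The 3 lower genes of the list were Ifi27l2a, Ifi27 and Ifitm2, of which the last 2 were chosen after their values were seen. Ifi27l2a had 1980 and 2470 FPKM in the line against 92.4 and 87.3 in primary cells (-4.61 ± 0.11).

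Upstream sequence of 3 of these genes is shown because the binding element of the interferon-activated complex can be read in it. The element was searched as GAAA, any 2 bases and GAAA, on both strands, in the 250 bases before the annotated start, using RefSeq promoter windows on GRCm38.p6, and its matches stand in capitals. Isg15 has 3 overlapping matches, Ifit1 has 2 and Rsad2 has 1.
Isg15 (chr4:156200819-156201068, minus strand): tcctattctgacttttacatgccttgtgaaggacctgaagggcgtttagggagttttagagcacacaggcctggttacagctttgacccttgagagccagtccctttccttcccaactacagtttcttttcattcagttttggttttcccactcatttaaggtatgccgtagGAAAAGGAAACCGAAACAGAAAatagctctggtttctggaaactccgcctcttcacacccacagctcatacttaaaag
Ifit1 (chr19:34640639-34640888, plus strand): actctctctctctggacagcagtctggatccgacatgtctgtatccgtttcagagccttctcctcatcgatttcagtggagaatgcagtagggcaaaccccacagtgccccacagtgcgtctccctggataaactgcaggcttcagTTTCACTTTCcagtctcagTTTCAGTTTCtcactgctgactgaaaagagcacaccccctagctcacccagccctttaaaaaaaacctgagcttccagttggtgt
Rsad2 (chr12:26456453-26456702, minus strand): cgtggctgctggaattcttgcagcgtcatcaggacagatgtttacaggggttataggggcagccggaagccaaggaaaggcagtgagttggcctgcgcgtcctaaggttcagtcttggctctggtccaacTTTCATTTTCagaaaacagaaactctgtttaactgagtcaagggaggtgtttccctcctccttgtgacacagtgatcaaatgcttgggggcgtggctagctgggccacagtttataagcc
Such letters occurred in 18 of the 39 higher interferon-stimulated genes that had a window (46.2%), in 1 of 1 lower gene (Ifitm2) and in 936 of 27025 genes in all (3.46%). A match is a description of the letters and not evidence of binding in these cells.

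Antigen presentation genes followed. Of 24 MHC class I and immunoproteasome genes matched, 21 were tested. In primary cells 18 were higher and 1 lower (median difference 0.905), against 26.7% and 36.2% of all entries. Of the 15 with at least 1 FPKM in all 4 libraries, 12 were higher and 1 lower (median 0.847). Among all entries at that level 23.3% were higher and 35.8% lower. H2-K1 had 99.5 and 105 FPKM against 8.39 and 8.59 (3.45 ± 0.06), H2-D1 73.4 and 79.5 against 6.33 and 6.26, and the peptide transporter Tap1 12.1 and 14.6 against 1.25 and 1.72. The MHC genes are polymorphic between strains and near-identical to one another, so short reads may be lost or shared among them and their values are uncertain. The single lower gene lost its call when any 1 library was left out.

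Macrophage markers were present at a low level in primary cells and close to 0 in the line. The summed FPKM of the 28 markers matched was 45.21 and 45.41 in WT-beige and 3.139 and 2.824 in Control-beige, against 728.6 and 647.4 in WT-white. All 28 had a value above 0 in at least 1 primary library, and 13 were listed at 0 in both line libraries. Lyz2, the macrophage lysozyme, had 9.47 and 7.59 FPKM against 0.398 and 0, and 268 and 287 in WT-white. Cd68 had 5.33 and 4.96 against 0.868 and 1.05, and Csf1r, the receptor for the macrophage growth factor, 0.648 and 0.482 against 0.0412 and 0.0436. In bulk RNA, fewer cells of a type and less RNA per cell cannot be told apart. The part of such cells in the interferon and antigen presentation values was not tested.

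Genes of the unfolded protein response were higher in primary cells, with 1 exception. This response senses unfolded proteins in the endoplasmic reticulum through ATF6, IRE1 and PERK and raises chaperones and degradation factors. All 22 genes of the list were tested, with a median difference of 1.44. Of these, 21 were higher in primary cells and 1 lower, against 26.7% and 36.2% of all entries. Hspa5, the chaperone BiP of that compartment, had 706 and 705 FPKM in primary cells and 138 and 135 in the line (2.36 ± 0.053, adjusted p = 3.39e-06). Its cofactor Sdf2l1 had 49.4 and 49.6 against 4.62 and 4.36 (3.20 ± 0.062), the degradation factor Herpud1 55.8 and 57.3 against 8.82 and 7.74, and the secreted protein gene Manf 62.5 and 63.6 against 14.4 and 13.3. Hyou1, a large chaperone, had 49.7 and 51.4 against 12.6 and 12.1. These 5 genes were named for the lowest p of the list, so the lack of overlap between their groups follows from that choice. The exception was Dnajb9, a BiP co-chaperone gene, at 49.6 and 50.3 against 61.8 and 67.9, chosen after its values were seen. In WT-white, Hspa5 had 225 and 330 FPKM, between the line and WT-beige.

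The promoter element of this response, searched as CCAAT, any 9 bases and CCACG, on both strands, stands in capitals in 2 examples. They are shown because both genes were called, and Creld2 was chosen after its values were seen.
Hspa5 (chr2:34771840-34772089, plus strand): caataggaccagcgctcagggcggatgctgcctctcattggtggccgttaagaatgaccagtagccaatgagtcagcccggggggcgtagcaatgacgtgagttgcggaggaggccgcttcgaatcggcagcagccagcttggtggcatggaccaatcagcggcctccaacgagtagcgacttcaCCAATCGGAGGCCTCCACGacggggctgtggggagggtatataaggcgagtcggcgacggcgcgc
Creld2 (chr15:88819396-88819645, plus strand): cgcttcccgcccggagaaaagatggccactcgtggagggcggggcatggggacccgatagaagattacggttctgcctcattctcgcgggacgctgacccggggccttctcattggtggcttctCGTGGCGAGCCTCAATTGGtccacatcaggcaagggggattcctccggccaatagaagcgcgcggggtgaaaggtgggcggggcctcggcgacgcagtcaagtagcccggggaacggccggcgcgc
In Hspa5 the match ends 47 bases before the start, and in Creld2 108 bases before it. In all, 9 of the 18 higher members with a window held a match, against 35 of 27025 genes (0.13%). Among members without one in this window were Sdf2l1 and Herpud1, which says only that these letters are not there.

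The integrated stress response, in which ATF4 raises genes for amino acid supply, showed the same direction. Of 32 genes matched, 29 were tested, 28 were higher in primary cells and 1 lower (median 1.45), against 26.7% and 36.2% of all entries. Of the 26 with at least 1 FPKM in all 4 libraries, 25 were higher, against 23.3% of all such entries. Atf4 had 133 and 133 FPKM against 49.3 and 47 (1.45 ± 0.055), Atf5 142 and 148 against 25.9 and 27.2, and Ddit3, the stress factor CHOP, 118 and 116 against 24.7 and 23.2. Trib3, a pseudokinase induced by ATF4, had 57.9 and 60.2 against 5 and 5.56 (3.26 ± 0.071), and Ppp1r15a, which restores translation, 23.4 and 24.3 against 2.58 and 2.87. The secreted stress hormone Gdf15 had 26.5 and 17.8 against 0.0642 and 0.26 (4.30 ± 0.19). Phgdh, the first enzyme of serine synthesis, was the exception at 6.42 and 8.16 against 13.2 and 15.8, chosen after its values were seen. The letters TTGCATCA, the core of an ATF4 composite element, stood in the windows of 5 of 24 higher members (20.8%) and of 0.918% of all genes.

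**Figure D2:**
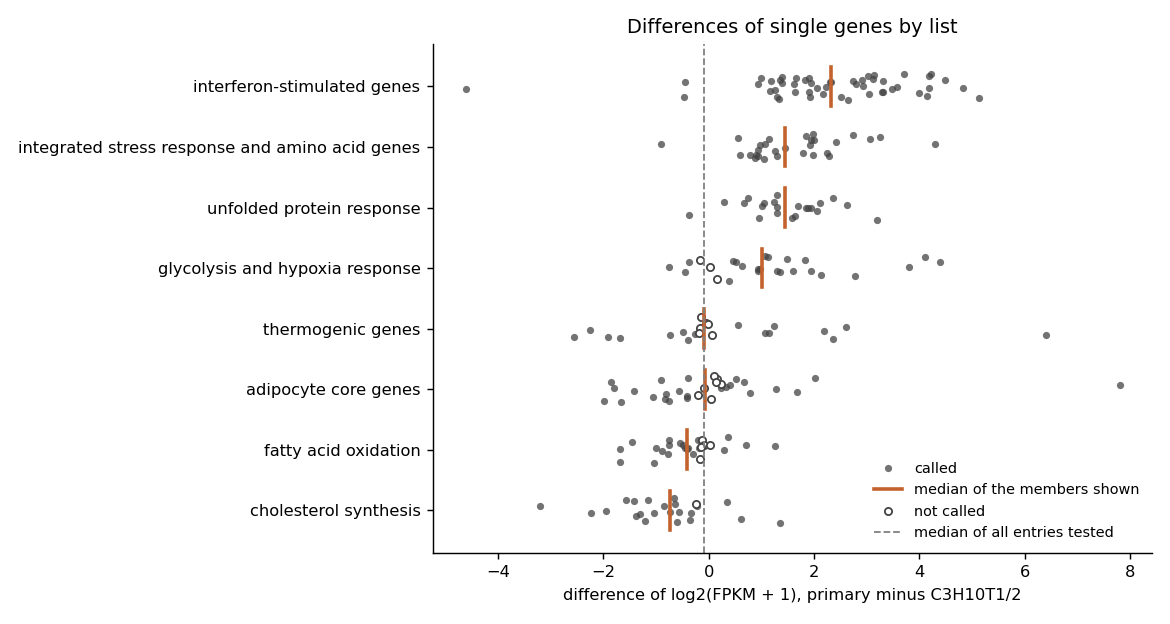
Difference of log2(FPKM + 1), primary minus C3H10T1/2, for each tested gene of 8 lists (filled, called; open, not called), leaving out genes at 0 in both libraries of a group. Interferon-stimulated, stress response and unfolded protein response genes lie right of the dashed median of all entries apart from 5 points, and cholesterol synthesis genes lie mostly left of it.

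Genes of glycolysis and of the hypoxia response were mostly higher in primary cells. Of 27 glycolysis and hypoxia response genes, 21 were higher and 3 lower, against 26.7% and 36.2% of all entries. The median was 1.01 without the 1 gene at 0 in a group. Egln3, an oxygen-sensing hydroxylase that hypoxia induces, had 85.5 and 69 FPKM against 3.57 and 2.02 (4.39 ± 0.21). The lactate exporter Slc16a3 had 20 and 20.7 against 0.255 and 0.209, the phosphofructokinase Pfkp 33 and 30.6 against 4.56 and 3.17, and the vessel growth factor Vegfa 140 and 130 against 39.6 and 35.3. Aldoc, a second aldolase, was listed at 0 in both line libraries against 5.9 and 5.15. The 3 lower genes were Pfkm, Eno2 and Pfkfb4, chosen after their values were seen, and the count was 1 without Control-beige replicate 1. Gapdh, often used as a reference, had 142 and 117 FPKM in primary cells and 12.7 and 8.25 in the line, and its many pseudogenes make that value uncertain.

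Cholesterol synthesis genes were lower in primary cells. Of 24 genes, all tested, 20 were lower and 3 higher in primary cells, against 36.2% and 26.7% of all entries. The median was -0.788, and -0.731 without the 1 gene listed at 0 in a group. Msmo1, a sterol oxidase gene, had 13.9 and 17.2 FPKM against 79.7 and 74, Dhcr7 7.58 and 6.38 against 28.8 and 30.5, and Fdps, which makes farnesyl diphosphate, 33.5 and 34.7 against 75.1 and 79.9. Fdft1, the squalene synthase gene, was listed at 0 in all 8 primary libraries, beige and white, against 17.52 and 19.06 in Control-beige. An exact 0 may be a failed estimate, so no fold is given for it. Sc5d and Insig1, chosen after their values were seen, were among the higher genes.

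Fatty acid oxidation and the citric acid cycle were lower to a smaller extent. Of 26 oxidation genes, 17 were lower and 4 higher in primary cells (median -0.403), against 36.2% and 26.7% of all entries. Cpt1a, the liver form of the enzyme that admits fatty acids to mitochondria, had 4.41 and 5.01 FPKM against 17.1 and 17.6 (-1.68 ± 0.079). The muscle form Cpt1b, whose values were looked up afterwards, had 73.8 and 74.4 against 90.9 and 76.7 and was not called. Acaa1b had 133 and 126 against 364 and 352, and Acadm 178 and 187 against 384 and 370. Of 19 citric acid cycle genes, 13 were lower and 3 higher (median -0.246), and the lower count was 6 without Control-beige replicate 2. In the second pair of groups 10 oxidation genes were higher and 7 lower (median 0.155). For the cycle, 6 genes were higher and 1 lower there (median 0.249). Of all entries tested in that pair, 26.9% were called higher and 27.1% lower (median -0.0111). Whether the lists differed between the comparisons was not tested.

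Among 81 nuclear genes for respiratory chain subunits, 19 were higher and 28 lower in primary cells, against 26.7% and 36.2% of all entries. The median was -0.0449, near that of all entries. With all 12 libraries in 1 fit the lower count was 18. In the second pair of groups 31 were higher and 8 lower (median 0.211), against 26.9% and 27.1% of all entries tested there (median -0.0111). Single subunits stood apart. Cox6a2, the heart and muscle form of a cytochrome oxidase subunit, was listed at 0 in all 4 line libraries and had 14.6 and 15 FPKM in WT-beige, and the hypoxia-linked form Cox4i2 was listed at 0 in the line against 5.86 and 4.1. Ndufa4l2, which lowers complex I activity in hypoxia, was listed at 0 in the line against 99.7 and 88.2. Uqcr11 and Uqcrh of complex III were lower in primary cells, at 279 and 268 against 590 and 609 and at 193 and 199 against 320 and 316. Nnt, which makes NADPH in mitochondria and is truncated in the C57BL/6J substrain, had 0.886 and 0.546 against 6.07 and 6.04, while WT-white cells of the same C57BL/6 label had 4.07 and 4.52.

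Of 22 tested genes of lipid synthesis 6 were higher and 13 lower in primary cells (median -0.247), against 26.7% and 36.2% of all entries. Scd1, which desaturates stearate, had 5390 and 5150 FPKM against 1400 and 1390 (1.92 ± 0.068), and the regulators Srebf1 (87.2 and 96.6 against 37.6 and 38.3) and Mlxipl (5.67 and 5.38 against 1.43 and 1.38) were higher. Acss2, which makes acetyl-CoA from acetate, had 71.9 and 66.1 against 12.4 and 12. Fatty acid synthase (Fasn), named after its values were seen, was lower at 155 and 135 against 269 and 268.

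**Figure D3:**
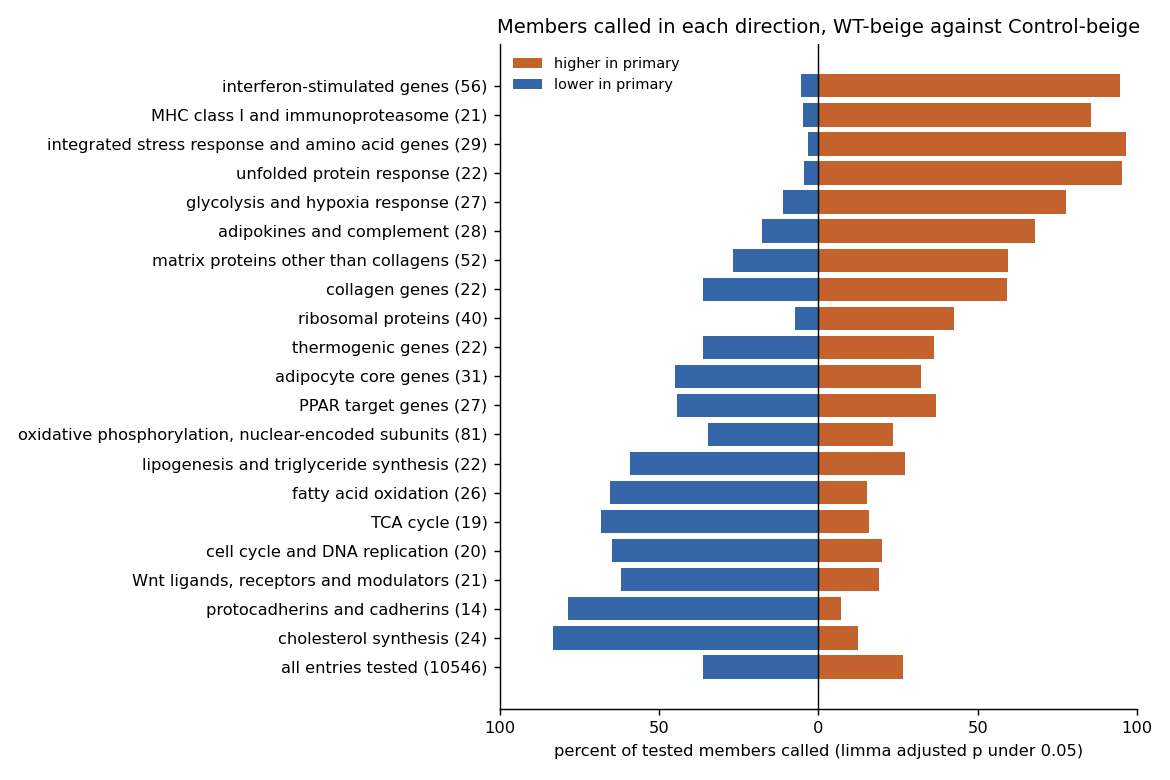
Percent of the tested members of 20 gene lists called higher (right) or lower (left) in primary cells, with the number tested in brackets and all entries tested in the bottom bar. Interferon, stress and unfolded protein lists are nearly all on the right, cholesterol synthesis is mostly on the left at 20 of 24, and adipocyte core and thermogenic genes have members on both sides.

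Levels of Hox genes differed between the origins cluster by cluster. These transcription factors record the position along the body axis from which a cell comes, and mesenchymal cells keep that record in culture. Of 39 genes, 19 passed the filter, many only through 1 group, and 20 did not. A gene that passed through 1 group only is higher in that group by the filter. Of the 4 with at least 1 FPKM in all 4 libraries, 1 was higher in primary cells and 3 were lower (median -1.15). The shares of all such entries were 23.3% and 35.8%. In the Hoxa cluster on chromosome 6, 6 genes were higher in the line and 2 in primary cells, in the order of the cluster: Hoxa2 to Hoxa7 favoured the line and Hoxa9 and Hoxa10 favoured primary cells. Hoxa2 had 0.308 and 0.329 FPKM in primary cells against 5.77 and 4.89, and Hoxa5 had 1.34 and 1.5 against 4.44 and 4.81 (-1.22 ± 0.087). Hoxa9 had 4.06 and 4.45 against 0.161 and 0.0691 (2.24 ± 0.094). In the Hoxb, Hoxc and Hoxd clusters the line did not exceed 0.0935, 0.292 and 0.025 FPKM at any gene, while primary cells reached 1.69, 8.38 and 4.18. Hoxc10, a factor of the posterior trunk and hind limb, had 8.38 and 7.48 against 0.102 and 0 (3.09 ± 0.099), and Hoxc6, Hoxc8 and Hoxc9 lay between 2.52 and 5.77 in primary cells. Levels of Hox genes were low throughout, and 1 gene was called higher in primary cells when at least 5 FPKM in 2 libraries was required.

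**Figure D4:**
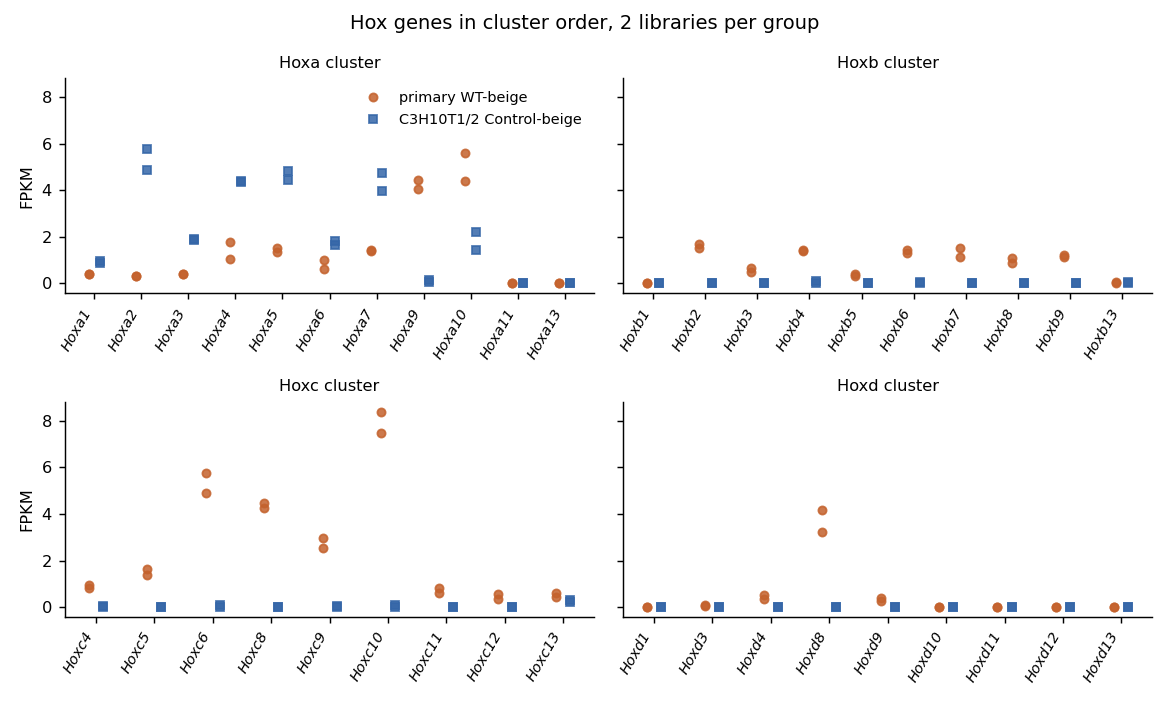
FPKM of all 39 Hox genes in cluster order, 2 libraries per group. In the Hoxa panel the line lies above primary cells up to Hoxa7 and below them at Hoxa9 and Hoxa10, and in the other 3 panels the line stays at or near 0.

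Hoxa7 and Hoxa10 above were chosen after their values were seen. Of 84 patterning factors matched, 42 were tested, with 13 higher and 23 lower in primary cells (median -0.562), against 26.7% and 36.2% of all entries. Many passed the filter through 1 group only: of the 24 with at least 1 FPKM in all 4 libraries 8 were higher and 11 lower, with a median of -0.0794, near that of all such entries (-0.086). Osr1, a factor of embryonic connective tissue progenitors, had 0.731 and 0.754 FPKM against 25.5 and 24.3 (-3.90 ± 0.073). Foxc1 had 3.56 and 3.6 against 16.7 and 16.6, Foxd1 0 and 0.0281 against 5.28 and 4.42, and Eya4 0.384 and 0.322 against 6.94 and 6.51. Primary cells had more of Irx1 (13.4 and 11.9 against 1.64 and 1.69), of Shox2 (9.38 and 11.5 against 1.23 and 1.51) and of the subcutaneous fat factor Tbx15 (4.48 and 4.52 against 1.76 and 1.58). Tbx1, used as a beige marker, was lower at 0.62 and 1.05 against 5.05 and 5.93. It belongs to a list of 17 beige-selective and brown-lineage markers, of which 7 were tested, with 5 higher in primary cells, Shox2, Klhl13 and Mpzl2 among them, and 2 lower (median 1.01). Of the 3 with at least 1 FPKM in all 4 libraries, 2 were higher and 1 lower. Tcf21, a visceral fat and stromal marker, was listed at 0 in all 8 beige libraries, and Wt1, a visceral marker, did not exceed 0.113 FPKM.

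Of 21 Wnt genes tested, 13 were lower in primary cells and 4 higher (median -0.662), against 36.2% and 26.7% of all entries. Of the 15 with at least 1 FPKM in all 4 libraries 10 were lower and 1 higher, against 35.8% and 23.3% of all such entries. Besides Rspo2, its relative Rspo3 had 0.18 and 0.308 FPKM against 3.99 and 3.41, and the nuclear effector Tcf7l2 5.15 and 4.5 against 15.1 and 14.9. The secreted Wnt antagonist Sfrp1 was higher in primary cells at 17.3 and 12 against 0.941 and 1.16 (2.91 ± 0.17). In the TGF-beta and BMP pathway 21 were higher and 15 lower of 37 tested, but 9 were higher and 10 lower of the 20 with at least 1 FPKM in all 4 libraries (median -0.123). Inhba, the activin A subunit, had 15.1 and 13 against 0.247 and 0.189, whereas Bmp4, which commits C3H10T1/2 cells to the fat lineage when added to them, had 0.0471 and 0 against 4.46 and 5.15. Protocadherins and cadherins, cell adhesion proteins, were lower for 11 of 14 tested and higher for 1 (5 and 1 of the 7 with at least 1 FPKM in all 4 libraries), with Cdh2 at 2.28 and 1.89 against 7.02 and 7.24.

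Of 52 matrix proteins other than collagens, 31 were higher and 14 lower (median 0.821 without the 1 gene at 0 in a group). Of 22 collagen genes 13 were higher and 8 lower (median 0.542), and of all entries 26.7% and 36.2%. With at least 1 FPKM in all 4 libraries, 21 of 37 matrix proteins were higher and 10 lower. At that level 10 of 16 collagens were higher and 5 lower, and 23.3% and 35.8% of all entries. Tenascin C (Tnc) had 26.2 and 25.1 FPKM against 1.52 and 1.07 (3.54 ± 0.11), fibronectin (Fn1) 140 and 139 against 35.4 and 34.9, and dermatopontin (Dpt) 14 and 13.5 against 0.273 and 0.294. Col1a1 had 366 and 358 against 141 and 127, and Col5a3 34 and 35.7 against 3.92 and 3.49. Smoc1 and Smoc2, a pair of related calcium-binding matrix proteins, went opposite ways: Smoc1 had 15.8 and 16.4 in primary cells against 0.566 and 0.563, and Smoc2 0.848 and 0.842 against 13.4 and 12.6. Col27a1 was the collagen most in favour of the line, at 1.04 and 1.09 against 14.3 and 14.5. The collagenolytic protease Ctsk had 23.7 and 27.7 against 0.125 and 0.133.

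Contractile and pericyte genes moved in both directions, with 4 higher and 3 lower of 9 tested, against 26.7% and 36.2% of all entries. Of the 5 with at least 1 FPKM in all 4 libraries, 1 was higher and 2 were lower, against 23.3% and 35.8% of all such entries. Acta2 had 31.8 and 33.8 FPKM in primary cells against 3.85 and 2.32 (3.07 ± 0.17), and Tagln, which binds actin filaments, was listed at 0 in all 4 line libraries against 45.2 and 37.7. Mcam, a pericyte adhesion protein, was lower at 5.34 and 5.22 against 18 and 20.3. Of 23 preadipocyte and stromal progenitor markers tested, 14 were higher and 7 lower, against 26.7% and 36.2% of all entries. Of the 16 with at least 1 FPKM in all 4 libraries, 9 were higher and 5 lower, against 23.3% and 35.8% of all such entries. Pdgfra, carried by adipocyte progenitors, was lower at 8.21 and 7.94 against 18.8 and 16.6 (-1.04 ± 0.08), and so was Clec3b, named above (-4.48 ± 0.11). Higher members were Dcn at 34.3 and 31.3 against 7.3 and 7.39 and Gsn at 235 and 227 against 62.3 and 62.1. Dlk1, which is shut off as preadipocytes differentiate, had 1.22 and 1.07 against 0.108 and 0.1.

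Secreted factors of fat tissue were higher for 19 of 28 tested and lower for 5, against 26.7% and 36.2% of all entries. With at least 1 FPKM in all 4 libraries, 9 of 16 were higher and 3 lower, against 23.3% and 35.8% of all such entries. Besides Rbp4, the acute-phase gene Serpina3n had 21 and 20.2 FPKM against 0.12 and 0.386, Ptx3 80.2 and 100 against 8.84 and 8.52, and complement C4b 26.2 and 28.6 against 3.35 and 3.33. The macrophage growth factor Csf1 had 46.7 and 56.4 against 4.98 and 5.16, and the chemokine Ccl7 10.7 and 10.7 against 0.366 and 0.385. Il1rn, the interleukin-1 antagonist, went the opposite way at 0.677 and 0.544 against 14.8 and 12.3. Of the IGF-binding proteins, Igfbp6 stood at 19.9 and 18.7 against 0.0481 and 0 and Igfbp3 stood at 19.3 and 24.5 against 0.56 and 0.308.

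Of 28 oxidative defence genes tested, 10 were higher and 13 lower (median -0.129). Among all entries 26.7% were higher and 36.2% lower (median -0.0814), not far off, so the counts say nothing particular about the list. Hmox1, which degrades haem, had 235 and 180 FPKM against 21.7 and 21.4 (3.20 ± 0.12), and Mt1 649 and 561 against 82.1 and 66.2. Gsta4, which clears lipid aldehydes, was lower at 2.89 and 3.83 against 63.1 and 67 (-3.93 ± 0.11). Among retinoid and alcohol enzymes, Adh1 had 66.6 and 56.7 in primary cells against 3.1 and 3.21.

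Of 40 cell cycle genes, 20 were tested, with 13 lower and 4 higher in primary cells (median -0.463). The shares of all entries were 36.2% lower and 26.7% higher. Of the 13 with at least 1 FPKM in all 4 libraries 8 were lower and 2 higher, against 35.8% and 23.3% of all such entries. Ccnd1, the cyclin that growth signals raise, had 1.77 and 1.53 FPKM against 9.59 and 9.43 (-1.99 ± 0.083), and Ccnd2 59.5 and 60.8 against 119 and 131. The count of higher genes was 1 or 2 when a library was left out. Cdkn2b was higher in primary cells at 12.9 and 13.4 against 7.33 and 7.07. Its neighbour Cdkn2a, the locus of p16 and p19ARF that is often lost in immortal lines, was present in both, at 6.45 and 5.16 against 4.67 and 4.45, and was not called (adjusted p = 0.0628).

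Sex chromosome genes marked the sources plainly. Xist, the RNA that silences 1 X chromosome in female cells, had 0.0366 and 0.016 FPKM in primary cells and 63.5 and 60.5 in the line. The Y-linked genes Ddx3y and Eif2s3y had 13 and 13.3 and 15.9 and 12.1 in primary cells against 0.0161 and 0 and 0.0381 and 0 in the line, where Kdm5d and Uty were listed at 0. The same held in the second pair of groups and in all 4 white libraries, where Xist did not exceed 0.027 FPKM. The sex of the cells, as these genes show it, cannot be told apart from origin. Of 25 imprinted genes tested, 7 were higher and 9 lower, shares near those of all entries (26.7% and 36.2%). Mest, expressed from the paternal copy and linked to fat cell enlargement, was listed at 0 in all 4 beige primary libraries against 51 and 48.7 in the line, with 3.78 and 4.4 in WT-white. H19 did not differ by the test, at 13.7 and 11.1 against 12 and 10.3.

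Many entries were listed at 0 in 1 origin only. In all 4 rosiglitazone-treated libraries of the line 344 entries were at 0 while all 4 primary ones were above 0, and 48 of these had at least 1 FPKM in each primary library. In the reverse direction there were 113 and 26. Besides Tagln, Ndufa4l2 and Cox6a2, the genes at 0 in the line with the highest primary levels were Tceb2 (114 and 103 FPKM), Itm2a (12.9 and 11), Ms4a4d (10.5 and 10.2), Cxcl10 (8.51 and 11.2) and Rpl39l (9.57 and 7.75). At 0 in the beige primary libraries, besides Mest and Fdft1, were Surf1 (27.1 and 25.1 in the line), Hist1h2ba (8.6 and 13.1), Cdc37l1 (11.9 and 11.1), Tbc1d17 (6.94 and 7.62) and Pold2 (5.69 and 6.41). Tceb2, Surf1, Fdft1 and Pold2 serve transcription, respiration, sterol synthesis and DNA replication in nearly every cell, and all 4 were also at 0 in every white library, so these zeros may be failed estimates. Cdc37l1 had 9.28 and 7.99 FPKM in WT-white but 0 and 8.74 in the 2 ATF7KO-white replicates, so its zeros may be such estimates too. Tbc1d17 had 5.93 and 9.83 FPKM in WT-white. Whether the other exact zeros are failed estimates was not tested. Leaving out every entry with an exact 0 gave 6488 calls of 10261 entries.

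Markers of other cells were at different levels. The 18 pericyte and smooth muscle markers summed to 110.6 and 104.8 FPKM in WT-beige and 54.98 and 55.42 in Control-beige, and to 182.5 and 185.2 in WT-white, with Tagln and Acta2 the highest in primary cells. The 17 Schwann and neural markers summed to 59.69 and 57.15 against 31.55 and 30.29, and to 130.5 and 131 in WT-white, most of it from the myelin protein gene Pmp22 at 48.4 and 45.2 in primary cells. Ngfr had 3.56 and 4.23 against 0.0293 and 0, and S100b was lower at 0.929 and 1.02 against 8.06 and 7.48. The part of such cells in the other results was not tested. The 17 endothelial markers summed to 5.796 and 5.73 FPKM in WT-beige and 4.673 and 5.282 in Control-beige. The 20 lymphoid and mast cell markers summed to at most 0.6142, the 21 skeletal muscle markers to at most 3.918, and the 16 mesothelial and epithelial markers to 9.626 and 8.822 against 2.2 and 1.785, most of it from the keratin gene Krt19 at 9.47 and 8.61 FPKM in primary cells, listed at 0 in the line.

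The direction of the differences also varied by chromosome. Across 20 chromosomes with at least 100 entries, most medians lay between -0.125 and -0.0275, but chromosome 10 (-0.372, 527 entries), chromosome 15 (-0.287, 421 entries), chromosome X (-0.229, 323 entries) and chromosome 4 (-0.176, 667 entries) lay below, and chromosome 3 (0.228, 502 entries) and chromosome 7 (0.199, 759 entries) were the ones above 0. On chromosome 10, 57.1% of the entries were called lower in primary cells and 19.2% higher, against 36.2% and 26.7% of all entries. On chromosome 3, 47.0% were called higher and 18.5% lower, and on chromosome 7, 44.9% and 13.7%. In the second pair of groups, which shares no library with the first, the medians were -0.349, -0.252, -0.185 and -0.149 for chromosomes 10, 15, X and 4, and 0.302 and 0.263 for chromosomes 3 and 7. Across 16 ways of processing the first comparison, the median stayed between -0.456 and -0.153 for chromosome 10 and between 0.073 and 0.273 for chromosome 3. No test was run across chromosomes, since genes are not replicates.

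**Figure D5:**
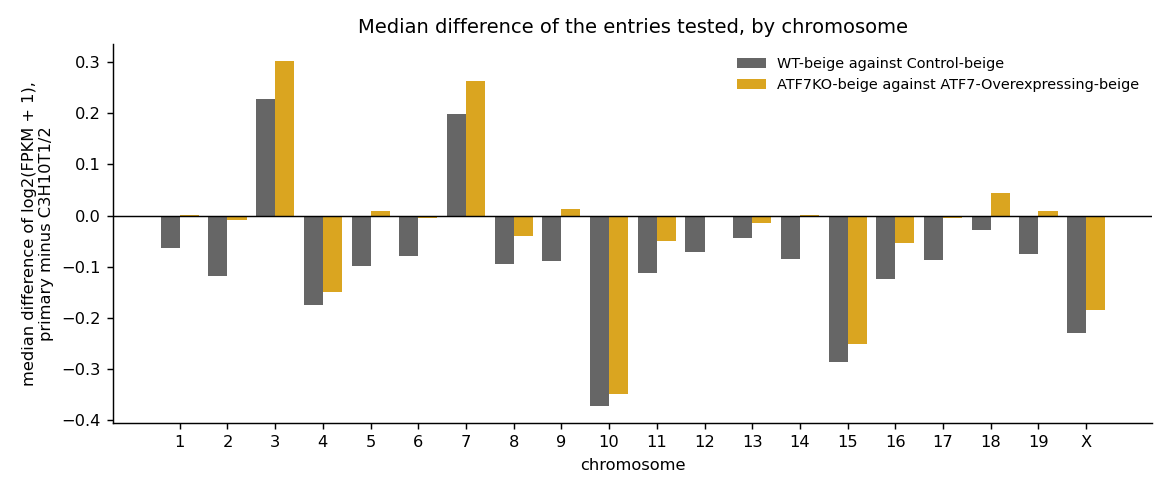
Median difference of log2(FPKM + 1), primary minus C3H10T1/2, over the tested entries of each chromosome, for the 2 comparisons that share no library. Chromosomes 3 and 7 stand above 0 at 0.228 and 0.199 in the first comparison, and chromosomes 10 and 15 lie lowest at -0.372 and -0.287.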

How the data were processed

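RNA of differentiated adipocytes was depleted of ribosomal RNA and sequenced in pairs with a directional kit, per the labels' protocols. The authors deposited 1 FPKM value per gene entry and library, per the file headers, on mm10 (GRCm38), a build named in the submitters' processing notes. How reads were aligned and counted, with or without strand, is not given in the sources used here. Entries were joined by gene and locus. Values were tested as log2(FPKM + 1) with limma 3.58.1 in R 4.3.3 (eBayes with trend), keeping entries with at least 1 FPKM in at least 2 of the 4 libraries, and p-values were adjusted by Benjamini-Hochberg over all entries tested, with 0.05 as the threshold. All differences are primary minus line on that scale, so changes of genes with low values appear too small. ± is the standard error of the fit. The code was tested on simulated data. The difference between the 2 comparisons was tested in 1 fit of 8 libraries.

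Named genes are the 12 largest called differences in each direction with every library above 0, the 8 highest entries in each direction listed at 0 in all 4 rosiglitazone-treated libraries of 1 origin, up to 5 members of each gene list with the lowest p, and fixed markers. Others were chosen after their values were seen. The members and lists were chosen with earlier results of these data known. Each list count of the first comparison is to be read beside the shares of all entries, 26.7% higher and 36.2% lower. Promoter windows are from RefSeq, GRCm38.p6. Alternatives covered the pseudocount, the filter, the scaling, the model and leaving out each library. Some results chosen by this rule are not reported here.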

Additional observations from a re-analysis of the deposited data

Results flagged for a closer look

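For 11 named genes the difference between primary and C3H10T1/2 beige adipocytes was not the same in the 2 comparisons, by a limma test of the difference of the differences (first minus second, log2 scale, adjusted over 10814 entries, of which 0.943% were called). The second comparison also differs in ATF7 status, which cannot be told apart from other features of its libraries.

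Among fat and thermogenic genes, Ucp1 was higher in primary cells by 1.14 in the first comparison and 4.23 in the second (-3.1, adjusted p = 0.0117). Cidea changed from -0.73 to 1.96 (-2.68, adjusted p = 0.000271). Fabp3 stood at -2.56 and then -0.01, where it was not called (-2.55, adjusted p = 0.00521), and Cox8b at -2.25 and -1.05 (-1.2, adjusted p = 0.0333). Cfd stood at -1.98 and -3.04 (1.07, adjusted p = 0.0395).

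Adh1 stood at 3.91 and 2.69 (1.22, adjusted p = 0.00719), the chemokine gene Ccl7 at 3.08 and 2.18 (0.9, adjusted p = 0.0439) and the stress factor gene Ddit3 at 2.24 and 3.13 (-0.89, adjusted p = 0.0214). Mcam stood at -1.68 and -2.93 (1.24, adjusted p = 0.00404) and S100b, a glial and adipocyte calcium-binding protein gene, at -2.15 and -1.24 (-0.91, adjusted p = 0.0411). Atf7, overexpressed in the line of the second comparison, stood at -0.15 and -2.26 (2.11, adjusted p = 8.6e-05).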

How the results depend on the processing

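Of 4028 gene values recomputed under the alternatives, 4007 kept their direction and side of the threshold, 17 changed side and 4 changed sign, and of 1600 list counts 81 moved by more than 1.5 times. The 4 sign changes were in genes that were not called: Fabp4 (0.0 with quantile normalization), Plin1 (-0.0022 to 0.11 over the fits without 1 library, lowest without Control-beige replicate 1), H19 (-0.005 to 0.28, lowest without WT-beige replicate 1) and Tbp (-0.024 to 0.3, lowest without Control-beige replicate 2). Pparg, Egfl7 and Eng lost their call in some settings, and Cebpb and Cdkn2a gained one. With 5 FPKM required, 4329 entries were called in place of 6637, and 3663 in place of 5655 in the second pair of groups, where fewer entries were tested. Leaving out 1 library gave 5119 to 5246 calls in the first comparison, 746 to 770 of the 838 list members called, and 3437 to 5124 calls in the second pair, with 3437 without ATF7-Overexpressing replicate 1 and 3550 without replicate 2. A group left with 1 library was assumed to vary like the other. With the replicate number as a block 6611 and 5623 entries were called. The deviations of same-numbered libraries correlated at -0.0366 and -0.163, so the numbers were not taken to pair them. Crossing the numbers in the second pair, an alternative chosen after seeing the data, gave 6174 calls, and leaving out exact zeros, also added then, gave 6488 in the first. Without counts, the depth of low genes is unknown.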
